A study of Homo sapiens with 9 samples.

Results

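EMP1, EMP2, EMP3 and PMP22 are small membrane proteins of the peripheral myelin protein 22 family, and their transcripts were followed in MDA-MB-231 cells and in metastatic derivatives of that line. The members were taken by gene symbol, which gave 4 of the 58884 genes in the count table, and all 4 were among the 13055 genes that passed the filter on low counts. Messenger RNA was measured by stranded RNA-seq in 3 lines with 3 biological replicates each, 9 libraries in all. Par is the parental MDA-MB-231 line, a claudin-low, hormone receptor negative breast cancer line. LM2 and BrM2 are sub-populations of it that had been selected in mice for colonization of the lung and of the brain. Each state was therefore represented by 1 line, and the replicates were cultures of that line harvested at different passages, untreated and grown in monolayer in DMEM with serum. EMP2 was picked out by the study from these same libraries as an example of a gene linked to enhancers, so its rise in LM2 is not independent evidence.

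The proteins of this family span the membrane several times and are distant relatives of the claudins. PMP22 is a component of the compact myelin made by Schwann cells, and changes in its gene dosage cause inherited neuropathies. EMP2 is known to bind integrins and focal adhesion kinase and to act on VEGF-driven angiogenesis, EMP1 was described in epithelial cells and in tumors, and EMP3 is widely expressed in mesenchymal and blood cells.

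All coordinates are from the RefSeq annotation of GRCh38.p14. EMP2 (ENSG00000213853) lies on the minus strand of chr16:10528422-10580598, PMP22 (ENSG00000109099) on the minus strand of chr17:15229779-15265326, EMP1 (ENSG00000134531) on the plus strand of chr12:13196726-13219941, and EMP3 (ENSG00000142227) on the plus strand of chr19:48325552-48330553. The members thus sit on 4 chromosomes. The promoters of EMP2 and EMP1 are printed because these members passed the test between lines without the replicate block described further on, and because their promoters differ most in base composition. Each runs from 250 bases before to 50 bases after the RefSeq start, 5′ to 3′ on the gene's strand, and capitals mark GC boxes (GGGCGG) and AP-1 sites (TGAGTCA), searched on both strands, so that a match on the other strand appears as its reverse complement.
EMP2, chr16:10580549-10580848, minus strand: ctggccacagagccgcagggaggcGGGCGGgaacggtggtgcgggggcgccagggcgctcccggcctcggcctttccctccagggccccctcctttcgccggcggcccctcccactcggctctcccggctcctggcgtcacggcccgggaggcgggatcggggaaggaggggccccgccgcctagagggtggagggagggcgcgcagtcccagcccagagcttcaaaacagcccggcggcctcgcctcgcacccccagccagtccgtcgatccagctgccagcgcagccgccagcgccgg
EMP1, chr12:13196476-13196775, plus strand: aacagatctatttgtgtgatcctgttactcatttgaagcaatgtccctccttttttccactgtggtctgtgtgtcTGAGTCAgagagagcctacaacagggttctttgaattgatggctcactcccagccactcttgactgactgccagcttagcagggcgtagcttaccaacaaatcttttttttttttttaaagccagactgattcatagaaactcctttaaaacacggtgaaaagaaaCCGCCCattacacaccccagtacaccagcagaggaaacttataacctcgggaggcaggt
The EMP2 promoter was 77% G or C with 33 CpG pairs, and the EMP1 promoter was 44.3% with 4, against medians of 58.7% and 14 over 35116 RefSeq promoters of the same length. Both held 1 GC box, a motif found in 45% of all promoters. Of this pair only EMP1 held an AP-1 site, which 4.95% of promoters had. PMP22 has 3 listed starts, with promoters of 50.7%, 64.3% and 71% GC, and EMP3 has 2, with 59.3% and 58%. Gene counts do not tell which start was used.

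Counts on genes totalled between 14371858 (a BrM2 library) and 24511786 (an LM2 library). The replicate numbers accounted for much of the spread. In a model with line and replicate number, 72.6% of the genes tested differed between the first replicate and the other two. Each comparison was therefore given without and with the replicate number as a block in edgeR's quasi-likelihood test, adjusted over all genes tested by the Benjamini-Hochberg method. The labels were checked against markers. The mesenchymal marker VIM was at a mean of 725 CPM in Par, 1540 CPM in LM2 and 1500 CPM in BrM2, and the hormone receptor genes ESR1 and PGR had at most 16 and 4 counts in a library. ERBB2, the third receptor gene of the subtype definition, had 1420 to 2722 counts. The other markers taken as high in this line were CD44 and the epithelial keratins KRT8 and KRT18. In Par, LM2 and BrM2, CD44 was at means of 611, 719 and 753 CPM and KRT18 at 432, 428 and 410 CPM. KRT8 was at 853, 517 and 509 CPM, so it went the other way from VIM (edgeR adjusted p = 0.49 and 0.41 against Par, and 0.0049 and 0.0047 with the block). Of the epithelial markers taken as low, EPCAM had 55 to 202 counts and CDH1 3 to 37. Of the markers of other cells, the leukocyte genes CD3E and PTPRC had at most 1 and 6 counts and CD14 had 21 to 87. The endothelial genes CDH5 and VWF had at most 4 and 9 counts, PECAM1 had 39 to 183 and KDR 69 to 204. Summed fibroblast markers were at 0.998 to 2.18 CPM in Par against at most 0.24 CPM elsewhere, a difference that came from LUM. LUM had 19, 44 and 42 counts in Par and at most 4 elsewhere, whereas PDGFRA and DCN had at most 5 and 2 counts in any library. In bulk libraries, fewer cells expressing a gene and less RNA per cell cannot be told apart.

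EMP2 was the member that separated the lines most, with about 2-fold more transcript in LM2 than in Par and its lowest level in BrM2. In replicates 1, 2 and 3 it was at 44.9, 34.6 and 35.2 CPM in Par, at 90.4, 68.9 and 64.8 CPM in LM2, and at 40.7, 28.1 and 27.6 CPM in BrM2. Every LM2 library was above every library of Par and BrM2, whereas the Par and BrM2 libraries overlapped. The first replicate was the highest of each line. The mean was 38.3 ± 5.77 CPM in Par, 74.7 ± 13.8 CPM in LM2 and 32.1 ± 7.41 CPM in BrM2 (SD, n = 3). These values rested on 551 to 1820 counts per library.

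**Figure D1:**
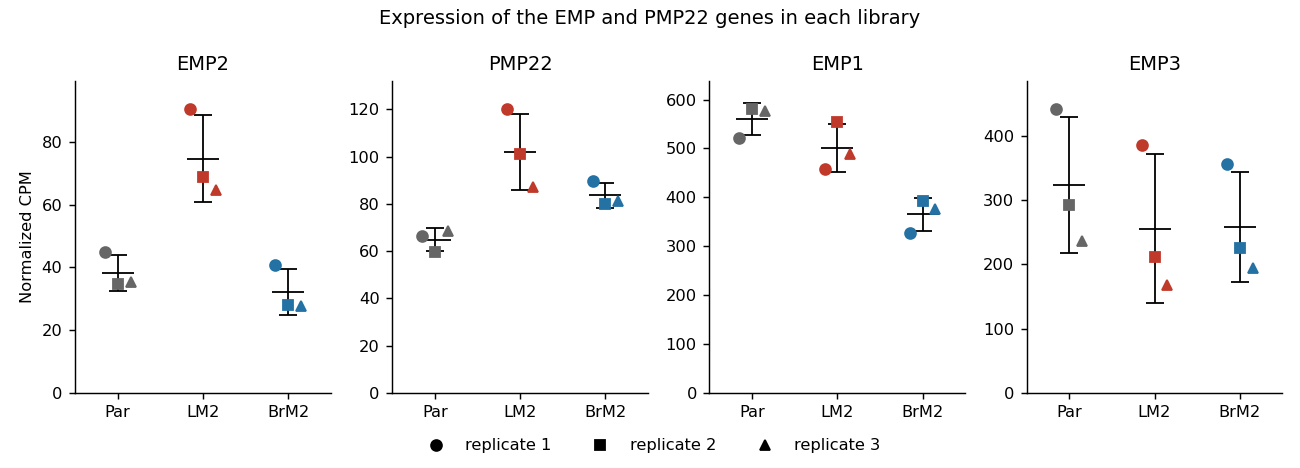
Level of each member in CPM (y axis, from 0, a scale of its own in each panel) in the 3 libraries of Par, LM2 and BrM2; points are libraries and are shaped by replicate number, and bars give mean and SD. EMP2 is higher in the 3 LM2 libraries (64.8 to 90.4 CPM) than in any other, and EMP1 is lowest in the 3 BrM2 libraries (328 to 392 CPM).

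The comparison of LM2 with Par asks what distinguishes cells with enhanced lung colonization. EMP2 rose by 0.96 on the log2 scale (SE 0.23, 95% interval 0.43 to 1.5), a fold of 1.95, with an edgeR adjusted p of 0.036. The change was 1.01, 0.99 and 0.88 between libraries of the same replicate number, and with the block the adjusted p was 9.4e-05 at the same size. Of the 4 members it was the only one called without the block, where 8.69% of all genes tested were called, 4.17% as higher and 4.52% as lower. The call without the block was lost on leaving out any of 8 of the 9 libraries, all but BrM2 replicate 1, with adjusted p of 0.022 to 0.16 over the 9 and a difference of 0.8 to 1.1. Without replicate 2 or replicate 3 of all lines it was 0.53 and 0.42. With the block the call was kept in 9 of 9 fits without a library and 3 of 3 without a replicate number.

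BrM2 is the sub-population with enhanced brain colonization. There EMP2 differed from Par by -0.25 on the log2 scale (SE 0.23, 95% interval -0.78 to 0.28, edgeR adjusted p = 0.60), and with the block by -0.27 (SE 0.11, adjusted p = 0.080). The sign was the same in each replicate number, at -0.14, -0.30 and -0.35, and the groups overlapped. Set directly against LM2, BrM2 differed by -1.22 (SE 0.24, 95% interval -1.75 to -0.68, edgeR adjusted p = 0.014), and -1.23 (SE 0.11, adjusted p = 2.2e-05) with the block. EMP2 in BrM2 was thus at 0.43 of its LM2 level, lower in 3 of 3 replicate numbers, in a comparison where 8.10% of genes were called, 4.11% as higher and 3.99% as lower, and where 65.2% moved in 1 direction in all 3 numbers. Without BrM2 replicate 2 or BrM2 replicate 3 the adjusted p without the block was 0.074 and 0.078, and without replicate 2 or replicate 3 of all lines it was 0.40 and 0.35. With the block the call was kept in 9 of 9 and in 3 of 3 such fits.

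PMP22, the myelin component after which the family is named, was higher in LM2 than in Par once the replicate number was in the model. It was at 66.5, 59.5 and 68.7 CPM in Par, at 120, 101 and 87.3 CPM in LM2, and at 89.7, 80.1 and 81.2 CPM in BrM2. The libraries of both sub-populations lay above all of Par and overlapped each other. Against Par, LM2 was higher by 0.66 on the log2 scale (SE 0.18, 95% interval 0.26 to 1.06), a fold of 1.58, with an edgeR adjusted p of 0.054 without the block and 0.0023 with it. The change differed among replicate numbers, at 0.85, 0.76 and 0.35. With the block, 34.5% of all genes were called in this comparison, and 25.2% had groups that did not overlap.

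In BrM2, PMP22 was higher than in Par by 0.37 on the log2 scale (SE 0.18, 95% interval -0.03 to 0.77, edgeR adjusted p = 0.25), and with the block the adjusted p was 0.034. That call was kept with the block in 3 of 9 fits without a library, those without Par replicate 3, LM2 replicate 1 or LM2 replicate 3, and in 0 of 3 without a replicate number (adjusted p of 0.066 to 0.084). BrM2 and LM2 differed by -0.29 (SE 0.18, 95% interval -0.69 to 0.11, edgeR adjusted p = 0.41, and 0.088 with the block). BrM2 was lower in each replicate number, at -0.41, -0.33 and -0.10, and the interval with the block was -0.56 to -0.02, but the difference did not pass after adjustment in either fit.

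EMP1 fell in BrM2. It was at 522, 580 and 577 CPM in Par, at 457, 554 and 489 CPM in LM2, and at 328, 392 and 376 CPM in BrM2. No BrM2 library reached the lowest library of the other lines. The difference between BrM2 and Par was -0.61 on the log2 scale (SE 0.16, 95% interval -0.97 to -0.26), a fold of 0.653, with an edgeR adjusted p of 0.034. It was -0.67, -0.56 and -0.62 by replicate number, and the adjusted p was 7.3e-04 with the block. EMP1 was the only member called against Par in BrM2 without the block, where 13.3% of genes were called, 6.25% as higher and 7.02% as lower, and where the groups of 31.3% of genes did not overlap.

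That call for EMP1 was kept without LM2 replicate 1 and lost without any other single library (adjusted p of 0.022 to 0.12 over the 9), and it was 0.44 and 0.55 without replicate 2 or replicate 3 of all lines. With the block it was kept in 9 of 9 and in 3 of 3 such fits. LM2 and Par overlapped, with a difference of -0.16 (SE 0.16, 95% interval -0.52 to 0.20, edgeR adjusted p = 0.68, and 0.24 with the block). BrM2 was lower than LM2 by a difference of -0.45 (SE 0.16, 95% interval -0.81 to -0.09), which did not pass without the block (edgeR adjusted p = 0.14) and passed with it (0.0061), except without LM2 replicate 2 (0.054) or without replicate 3 of all lines (0.08). With the block, 37.5% of all genes were called between BrM2 and LM2, and the groups of 23.1% did not overlap.

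EMP3 varied more within lines than between them. It was at 441, 293 and 236 CPM in Par, at 386, 211 and 167 CPM in LM2, and at 356, 225 and 194 CPM in BrM2. The 3 groups overlapped in all comparisons, and the SD was 32.8% of the mean in Par, 45.7% in LM2 and 33.3% in BrM2. Without the block the differences from Par were -0.35 in LM2 (SE 0.38, edgeR adjusted p = 0.73) and -0.32 in BrM2 (SE 0.38, adjusted p = 0.70).

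With the block the same differences were -0.39 (SE 0.11, 95% interval -0.63 to -0.14, edgeR adjusted p = 0.021) and -0.32 (SE 0.11, 95% interval -0.57 to -0.08, adjusted p = 0.037). EMP3 was lower in the sub-populations in 3 of 3 replicate numbers in both comparisons, by changes of -0.19, -0.47 and -0.50 in LM2 and of -0.31, -0.38 and -0.28 in BrM2. A change of 1 direction in all 3 numbers was seen for 61.8% of all genes between LM2 and Par and for 62.8% between BrM2 and Par. The blocked call in LM2 was lost without any of Par replicates 2 and 3 and LM2 replicates 2 and 3 (adjusted p of 0.071 to 0.13). The blocked call in BrM2 held only without Par replicate 1 (0.034) or LM2 replicate 1 (0.018). Leaving out a replicate number of all lines, the blocked call in LM2 was kept without replicate 1 and that in BrM2 in none of 3 fits (adjusted p of 0.051 to 0.26). BrM2 and LM2 differed by 0.02 (SE 0.38, 95% interval -0.84 to 0.88, edgeR adjusted p = 0.99), and by 0.06 with the block (SE 0.11, 95% interval -0.18 to 0.31, adjusted p = 0.69).

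**Figure D2:**
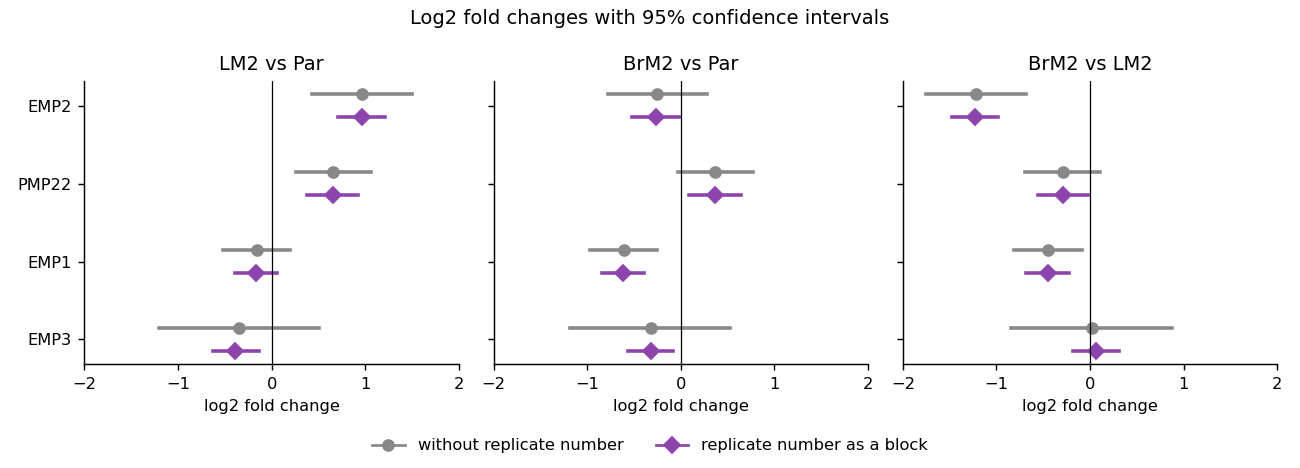
Log2 fold change of each member in the 3 comparisons of lines (x axis, log2 scale), with the 95% interval of edgeR without and with the replicate number as a block; circles and diamonds stand for the fits without and with it. The intervals narrow with the block, and the EMP2 intervals exclude 0 in both fits for LM2 against Par and for BrM2 against LM2.

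With the block, 42.7% of all genes were called between BrM2 and Par, so that calls of 3 members there (EMP1, EMP3 and PMP22) are to be read against that share. The comparisons of LM2 and BrM2 with Par use the same 3 Par libraries. Side by side, EMP2 was at 0.96 in LM2 and -0.25 in BrM2, PMP22 at 0.66 and 0.37, EMP1 at -0.16 and -0.61, and EMP3 at -0.35 and -0.32, all as log2 differences from Par.

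The effect of the replicate number differed among the members. In the model with both terms, the first replicate was above the others by 0.86 on the log2 scale for EMP3 (SE 0.09, edgeR adjusted p = 3.4e-05) and by 0.45 for EMP2 (SE 0.10, adjusted p = 0.0017). It was 0.19 for PMP22 (SE 0.11, edgeR adjusted p = 0.13) and -0.19 for EMP1 (SE 0.09, adjusted p = 0.080). For EMP3 the excess was 0.74 in Par, 1.03 in LM2 and 0.76 in BrM2, larger than its differences between lines. EMP3 transcripts are also the richest in G and C of the family, at 59.9% against 42.6% to 47.4% in the others. The part of base composition in the replicate difference was not tested.

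Levels of different genes were compared per kilobase of transcript, using the length of 1 reference transcript per gene. On that scale the order was EMP3, EMP1, PMP22 and EMP2 from high to low, in 9 of 9 libraries, and it was the same with the summed length of all exons. In Par the levels were 498 ± 163 CPM per kilobase for EMP3, 94.6 ± 5.49 for EMP1, 35.5 ± 2.61 for PMP22 and 7.51 ± 1.13 for EMP2 (SD, n = 3). Neighbours in this order did not overlap over the libraries of any line on the scale of the reference transcript. With the summed length of all exons, PMP22 was at 6.24 and EMP2 at 4.42 in Par, and their libraries overlapped in LM2 (8.4 to 11.5 for PMP22 and 7.49 to 10.5 for EMP2). In LM2 the levels were 392 ± 179 for EMP3, 84.6 ± 8.3 for EMP1, 56.1 ± 8.87 for PMP22 and 14.7 ± 2.7 for EMP2, and in BrM2 they were 398 ± 132, 61.8 ± 5.61, 45.8 ± 2.86 and 6.3 ± 1.45 in the same order of genes. EMP2, the member with the clearest change between lines, was thus the least abundant of the family per length in each of them. Its share of the summed level per length was 1.2 ± 0.148% in Par, 2.77 ± 0.416% in LM2 and 1.24 ± 0.0652% in BrM2. The share of PMP22 was 5.81 ± 1.5% in Par, 10.6 ± 1.74% in LM2 and 9.23 ± 1.69% in BrM2. With the summed length the shares were 1.61 ± 0.159%, 3.72 ± 0.43% and 1.72 ± 0.0799% for EMP2 and 2.31 ± 0.539%, 4.26 ± 0.544% and 3.83 ± 0.621% for PMP22, so that the share of PMP22 depends on the length taken. LIM2, the lens member of the family, had 0 counts in all 9 libraries.

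Ratios between members of the same library do not depend on how libraries are scaled. The log2 ratio of EMP2 to EMP1 counts was -3.54, -4.07 and -4.03 in Par, -2.34, -3.01 and -2.92 in LM2, and -3.01, -3.80 and -3.77 in BrM2. LM2 and Par did not overlap and differed by 1.13, a difference of 1.06 to 1.20 by replicate number. Against EMP3, EMP2 was higher in LM2 than in Par by 1.35 (1.20 to 1.46 by replicate number). Against PMP22, which also rose in LM2 in the blocked fit, the difference was smaller, at 0.31 (0.16 to 0.53). In BrM2 the EMP2 to PMP22 ratio was below that of Par by a difference of -0.63 and below that of LM2 by -0.94. Of 18 such comparisons, 10 had groups that did not overlap, each at an exact two-sided permutation p of 0.10, the smallest that 3 against 3 libraries allow, so none could pass 0.05 (the smallest Benjamini-Hochberg value was 0.18).

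**Figure D3:**
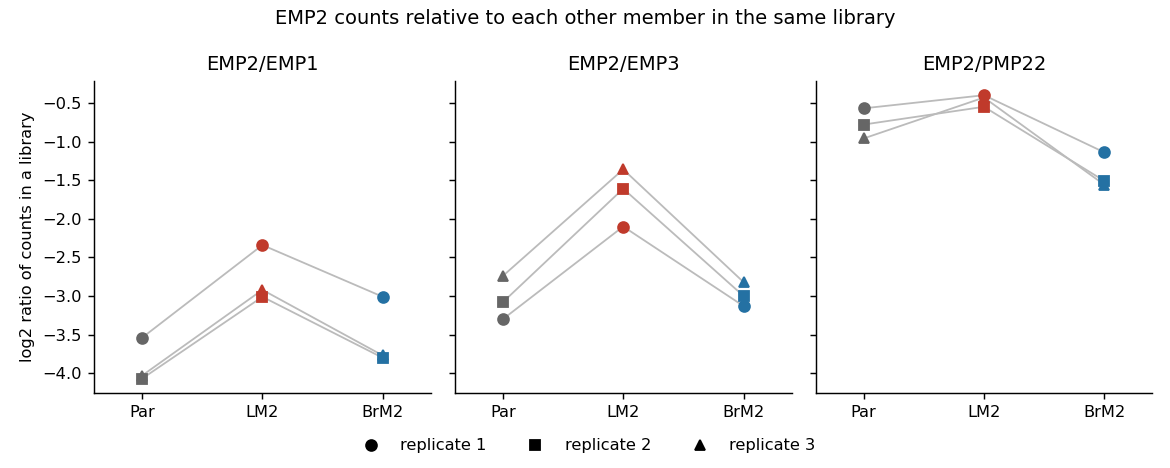
Log2 ratio of the counts of pairs of members within each library (y axis) for EMP2 over EMP1, EMP3 and PMP22, by line, with grey lines joining libraries of the same replicate number. EMP2 relative to EMP1 and to EMP3 is higher in the 3 LM2 libraries than in any Par library, with mean differences of 1.13 and 1.35.

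The genes known to work with EMP2 and PMP22 were followed as a list of 20, of which 17 were tested. In LM2 against Par none passed edgeR's test without the block or DESeq2 (1 higher and 1 lower at an unadjusted p under 0.05), and 3 were higher and 4 lower with the block, under which 34.5% of all genes were called. The median was -0.04 against 0.01 over all genes. In BrM2 against Par, 4 fell and none rose without the block (5 and 0 at an unadjusted p under 0.05 and in DESeq2), and 8 were lower and 3 higher with it, where 13.3% of all genes were called without the block and 42.7% with it. The median was -0.30 against -0.02. The 4 that fell were the integrin subunits ITGB4, which pairs with ITGA6 to bind laminin, and ITGB5, which pairs with ITGAV, the caveolar coat protein CAV1 and the angiogenic ligand VEGFA. ITGB4 fell by 2.03 on the log2 scale (edgeR adjusted p = 0.011), from a mean of 230 to 56.6 CPM. ITGB5 fell by 1.69 (edgeR adjusted p = 0.011), from 324 to 101 CPM. CAV1 fell by 0.99 (edgeR adjusted p = 0.033), from 1130 to 572 CPM, and VEGFA fell by 0.68 (adjusted p = 0.018), from 234 to 146 CPM.

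ITGB4 was also lower in BrM2 than in LM2, by a difference of -2.32 (edgeR adjusted p = 0.0088), as was the transcriptional co-activator WWTR1 (-0.99, adjusted p = 0.017). No gene of the list was higher without the block or in DESeq2, which called 3 lower (1 higher and 4 lower at an unadjusted p under 0.05). With the block, 2 were higher and 7 lower. Over all genes tested, 8.10% were called in this comparison without the block and 37.5% with it. ITGA6 was at 253 ± 40.9 CPM in Par, 455 ± 137 in LM2 and 387 ± 127 in BrM2 (SD, n = 3). Its difference from Par did not pass without the block (0.85 in LM2, edgeR adjusted p = 0.16) and passed with it (8.1e-04 in LM2 and 0.005 in BrM2). HIF1A, the hypoxia factor upstream of VEGFA, was at -0.91 in BrM2 (edgeR adjusted p = 0.34, and 2.7e-04 with the block). PTK2, the gene of focal adhesion kinase, was at 0.47 there (edgeR adjusted p = 0.31, and 0.007 with the block). The purinergic receptor P2RX7 had 0 or 1 counts in the Par libraries, 4, 6 and 17 in LM2 and at most 3 in BrM2, and was too low to be tested. The Schwann cell factors EGR2 and SOX10 had at most 10 and 2 counts.

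**Figure D4:**
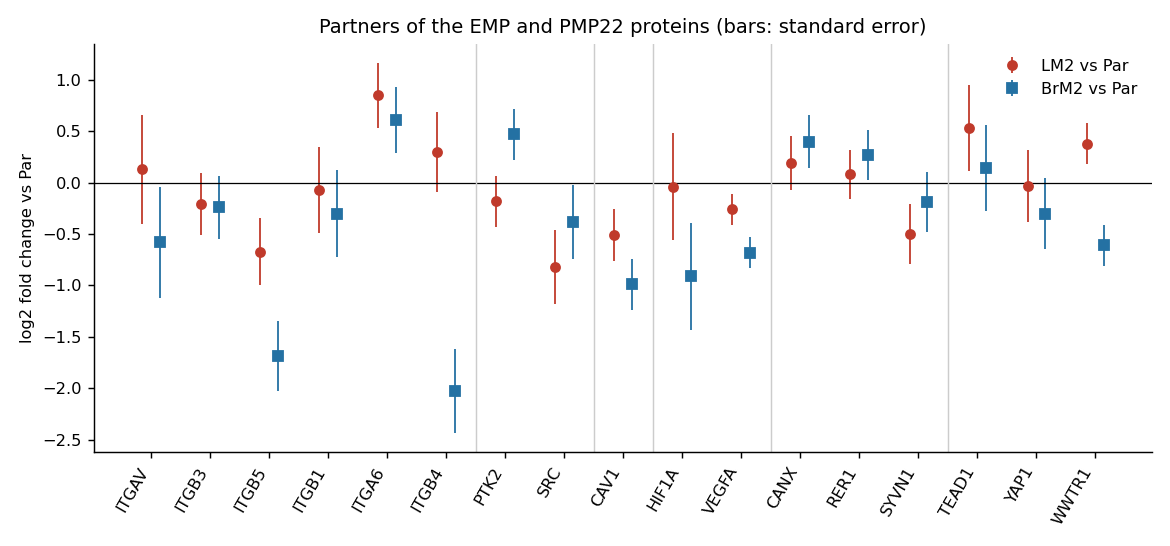
Log2 fold change against Par (y axis) of the 17 tested genes known to work with EMP2 and PMP22 (x axis, grey lines between the kinds of gene), for LM2 (circles) and BrM2 (squares), with bars of 1 standard error from edgeR without the block. ITGB4 and ITGB5 lie lowest in BrM2, at -2.03 and -1.69.

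PMP22 is best known from myelin, and other genes of Schwann cell myelin were examined beside it. GJB1 had 0 counts in all libraries and MAG at most 1. MBP, which is transcribed in several non-glial cells as well, was at 168 ± 7.75 CPM in Par, 102 ± 4.01 in LM2 and 141 ± 6.35 in BrM2 (SD, n = 3). It fell by 0.71 on the log2 scale in LM2 against Par (edgeR adjusted p = 0.017), where PMP22 was at 0.66.

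Of 39 other genes of the claudin superfamily, 12 were tested and 8 had no count in any library. By edgeR without the block, 1 was higher and 4 lower in LM2 than in Par, where 8.69% of all genes were called, and 3 were higher and 4 lower in BrM2 than in Par, where 13.3% were. DESeq2 gave the same counts, and with the block they were 1 and 7 in LM2 and 3 and 5 in BrM2. The log2 differences had medians of -0.76 and -0.21 against 0.01 and -0.02 over all genes. CACNG7, CACNG8, CLDN11 and CLDN23 passed the filter (47.15 normalized counts in any library) only through the line where each was highest. Their being tested, and so these counts and medians, therefore depended in part on the differences themselves. The tight junction genes CLDN2 and CLDN4 fell in both, with log2 differences of -3.04 in LM2 and -4.13 in BrM2 for CLDN2 and of -4.03 and -2.26 for CLDN4. CLDN11, a claudin of myelin and of the testis barrier, had 13, 23 and 31 counts in Par, 127, 132 and 122 in LM2 and at most 1 in BrM2. It thus stood above Par in LM2 and below it in BrM2, in a range of counts far below that of EMP2. CLDN23 fell in both as well, with 92 to 104 counts in Par, 42 to 51 in LM2 and 3 to 5 in BrM2. CLDN1, a tight junction claudin, was higher in BrM2 than in Par by 1.81 on the log2 scale (edgeR adjusted p = 0.0043). CACNG7 and CACNG8, of the family of calcium channel gamma subunits, had 68 to 95 and 17 to 74 counts in BrM2, 21 to 36 and 2 to 3 in Par, and at most 4 and 3 in LM2. PERP, a desmosomal relative, was at means of 78.7, 83.4 and 75.8 CPM in Par, LM2 and BrM2.

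Calls of genes around each member are to be read beside the shares of all genes tested that were called. Without the block these were 8.69% between LM2 and Par, 13.3% between BrM2 and Par and 8.10% between BrM2 and LM2. With the block they were 34.5%, 42.7% and 37.5%. The genes around EMP2 were examined for changes of the same kind as its own. Of the 10 nearest tested genes, 5 on each side, none was called in any comparison by edgeR without the block or by DESeq2, and at an unadjusted p under 0.05 1 was higher in LM2 and 1 lower in BrM2, both against Par. With the block, 1 was higher in LM2 than in Par (TMEM186, 0.51, edgeR adjusted p = 0.041) and 1 lower in BrM2 than in Par (CIITA, -0.83, adjusted p = 0.0013). Between BrM2 and LM2, 2 were lower with it (CIITA, -0.59, edgeR adjusted p = 0.01, and DEXI, -0.62, adjusted p = 0.047). All of these were in the direction of EMP2 in the same comparison, although EMP2 was not called between BrM2 and Par. With 1, 1 and 2 of 10, such calls were rarer than among all genes. Between BrM2 and Par, TMEM186 was at 0.46 with the block (edgeR adjusted p = 0.052), opposite in sign to EMP2. The median of the 10 there was 0.13 without the block, against -0.25 for EMP2. The log2 fold changes of the 10 neighbours between LM2 and Par ran from -0.20 to 0.51 with a median of 0.18, all below that of EMP2. The nearest tested genes on each side, NUBP1 at 163 kb and USP7 at 1560 kb, were at -0.13 (edgeR adjusted p = 0.91) and 0.17 (adjusted p = 0.86). The others on the side of USP7 lay 1660 to 1860 kb away, so on that side no gene close to EMP2 was tested. None of the 10 neighbours of PMP22 was called without the block or by DESeq2, and 1 was lower in BrM2 than in Par at an unadjusted p under 0.05. With the block, under which PMP22 was called, 1 of them was higher and 2 lower in LM2 than in Par, 3 were higher and 2 lower in BrM2 than in Par, and none was called between BrM2 and LM2 by edgeR or DESeq2 (0 at an unadjusted p under 0.05 without the block). Of those of EMP1, EPS8 was lower in BrM2 than in Par, at -1.52 (edgeR adjusted p = 0.024), and with the block 1 was higher and 1 lower in LM2 than in Par, 1 higher and 2 lower in BrM2 than in Par, and 2 lower in BrM2 than in LM2. Of those of EMP3, 2 were higher and 1 lower in LM2 than in Par without the block. The last was ZNF114, the nearest tested gene on 1 side at 37.9 kb (-2.06, edgeR adjusted p = 0.0024). The 2 higher ones, CARD8-AS1 and KCNJ14, were also higher in BrM2 than in Par (1.35, edgeR adjusted p = 0.006, and 1.27, adjusted p = 0.034). ZNF114 was higher in BrM2 than in LM2 (1.70, edgeR adjusted p = 0.0064). With the block, 2 neighbours of EMP3 were higher and 1 lower in LM2 than in Par. In BrM2, 3 were higher and 2 lower than in Par, and 1 was higher and 1 lower than in LM2.

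**Figure D5:**
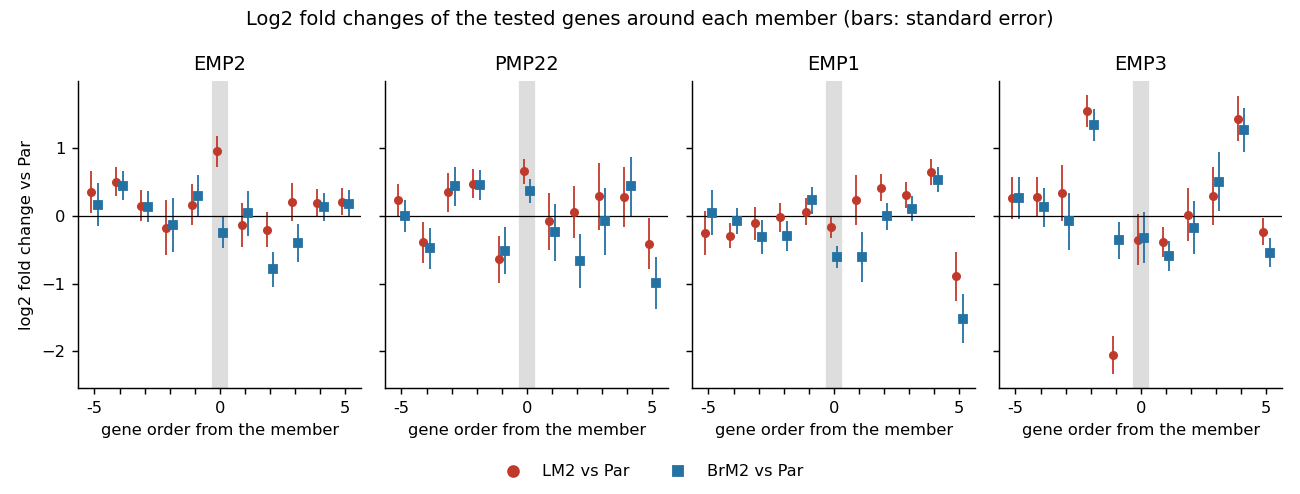
Log2 fold change against Par (y axis) of each member (grey band) and of the 5 nearest tested genes on each side, in order along the chromosome (x axis, place from the member), for LM2 (circles) and BrM2 (squares), with bars of 1 standard error. In LM2, EMP2 stands at 0.96 among neighbours at -0.20 to 0.51.

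The genes whose log2 CPM followed each member most closely over the 9 libraries are given as a description, since these libraries share lines and replicate numbers. For EMP2 they were NAV1, PAK6 and ADAM19, with Pearson's r of 0.989, 0.985 and 0.984. For PMP22 they were SGK1, TM4SF1 and WDR61 (0.974, 0.970 and 0.968), for EMP1 FUNDC1, LAMB1 and B2M (0.983, 0.979 and 0.977), and for EMP3 KCTD11, RPL39L and MEA1 (0.987, 0.984 and 0.983). After the mean of each replicate number was taken out, the closest were LGR6 for EMP2 (0.997), UST for PMP22 (0.987), ADAMTS14 for EMP1 (0.997) and USP30 for EMP3 (0.993). LGR6 was at 12.4 CPM in LM2 but at 0.602 and 0.304 CPM in Par and BrM2, so it passed the filter only through LM2. ADAMTS14 was at 5.54 CPM in Par, 1.67 in LM2 and 0.0307 in BrM2. Its log2 difference between BrM2 and Par was -7.09, against -0.61 for EMP1, so a high r did not mean changes of like size. Among the members, the pair with the highest r was EMP2 and PMP22, at 0.70, and at 0.67 with the replicate means removed. EMP3 and PMP22 went from -0.033 to -0.77 when those means were removed.

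Some reads could belong to other genes. EMP2, EMP3 and PMP22 each overlap exons of a gene on the opposite strand, and which strand was counted was not stated. The partner of EMP2 had 0 counts in all libraries, that of PMP22 at most 6, and that of EMP3, CCDC114, between 18 and 45, against at least 4054 counts of EMP3. PMP22 also shares 99 bases of exon with a gene on its own strand that was not analysed here. Of the 50-base stretches of EMP2 transcripts, 2.06% occur in another gene, as do 0.862% of those of PMP22 and 0% of those of EMP1 and EMP3.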

How the data were processed

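Per the labels and methods, libraries were made with a stranded mRNA kit, and the authors mapped paired-end reads to hg38 with STAR 2.7.0 and deposited its raw counts per gene, which are not normalized. Which strand was counted was not given in the sources used here. A deposited table of the authors' own comparisons, with their fold changes and adjusted p-values, was not used. The members and the gene lists were chosen with earlier results of these data known. By the rule, the text names the members in every comparison, LIM2, and genes of the lists that passed the test or were most abundant. It also names the nearest tested genes beside a member and the 3 genes most correlated with each member. Other genes were named after their values were seen. They are neighbours further away, list genes with few or no counts or called only with the block, CCDC114, and the markers of the line and of other cells.

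The count table had 58887 rows, in which 3 identifiers stood a second time with the same counts under another symbol. The first was kept. A filter after HTSFilter (100 thresholds from 1 to 200, loess span 0.3) kept genes above 47.15 normalized counts in any library. edgeR 4.0.16 with TMM factors fitted the 3 lines over 9 libraries by its 2-sided quasi-likelihood test, with Benjamini-Hochberg adjustment over 13055 genes and a threshold of 0.05. CPM are counts scaled by the TMM library size. For correlations, log2 CPM had a prior count of 2. DESeq2 1.42.0 in R 4.3.3 was an alternative, beside RLE factors, other filters, fits to 6 libraries, and each library or replicate number left out. RLE factors and the left-out libraries or replicate numbers were also fitted together with the block, and these combined fits were added after seeing the data. The block itself was a planned setting, chosen with earlier results of these data known. The tests were checked on counts simulated with a spread close to that of the blocked fit, and with replicate effects taken from that fit or with none. This check therefore cannot show whether the blocked model holds for these data.

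The labels do not say what a replicate number shares between lines, so pairing was judged from the values. Deviations from the line means correlated at 0.23 to 0.90 in all 9 pairs of libraries with the same number, so the numbers were treated as pairing. The common dispersion was 0.11 without the block and 0.021 with it. Without the block, p-values measure the spread between passages of each line. With the block, they measure only what is left after the differences shared by a replicate number are taken out.

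Promoters and gene positions came from RefSeq (GRCh38.p14) and matched 4 of the 4 members by symbol. Transcript lengths, base composition, overlapping exons and shared stretches came from a GENCODE annotation on GRCh37, from which no coordinates are given. The results of some genes of the lists are not reported here.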

Additional observations from a re-analysis of the deposited data

Results flagged for a closer look

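The change of EMP2 against Par differed between the sub-populations. The difference between BrM2 and LM2 was -1.22 on the log2 scale (edgeR adjusted p = 0.014, and 2.2e-05 with the replicate block). Without BrM2 replicate 2 or BrM2 replicate 3 the adjusted p without the block was 0.074 and 0.078. EMP2 was higher than Par in 3 of 3 replicate numbers in LM2 and lower in 3 of 3 in BrM2. Its difference between BrM2 and Par was not called (edgeR adjusted p = 0.60, and 0.080 with the block), and those groups overlapped. Of all genes, 61.8% moved in 1 direction in all 3 numbers between LM2 and Par and 62.8% between BrM2 and Par. With 3 libraries per line, no library was tested for standing apart within its line.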

How the results depend on the processing

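The number of genes called depended mostly on the replicate number. Without the block it was 1134 between LM2 and Par, 1733 between BrM2 and Par and 1057 between BrM2 and LM2. With the replicate block, edgeR called 4510, 5577 and 4896, DESeq2 4608, 5575 and 4934, and edgeR with RLE factors 4611, 5612 and 4931. DESeq2 without it called 1893 and 1824 in the comparisons with LM2, and the fit to 6 libraries called 598 between BrM2 and LM2. Over all fits that left out a library or a replicate number, with and without the block, the counts ran from 70 to 5466, from 159 to 5846 and from 53 to 5668. Leaving out the first replicate of each line gave 4327, 5274 and 4257 without a block, leaving out the second 70, 159 and 53, and leaving out the third 136, 274 and 113. With the block and a single library out, the ranges were 2789 to 5466, 3807 to 5648 and 2902 to 5668.

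For the members, directions were kept in all these fits except for EMP3 between BrM2 and LM2. Its difference was 0.02 and turned to 0.00 with no filter, to -0.10 without LM2 replicate 2, -0.21 without LM2 replicate 3, -0.28 without BrM2 replicate 1 (its fits without a library ran up to 0.45) and -0.02 without replicate 3, and with the block to -0.01 without replicate 3 and 0.00 without LM2 replicate 3. With no filter on low counts, adjusted p was 0.063 for EMP2 between LM2 and Par and 0.22 for EMP1 between BrM2 and Par. In fits to 6 libraries it was 0.050, 0.052 for EMP1 and 0.052 for EMP2 between BrM2 and LM2. DESeq2 also called PMP22 between LM2 and Par (0.0043) and EMP1 between BrM2 and LM2 (0.0084). The causes were not tested. The pairing block changed no other call than those given with each member.

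Each state rests on 1 line with 3 libraries. EMP2, the member with the fewest reads, had 551 to 1820 counts per library.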
